A study of Mus musculus with 4 samples.

Results

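The genes described here encode the pyruvate dehydrogenase complex with its kinases and phosphatases, the enzymes of the tricarboxylic acid (TCA) cycle, pyruvate carboxylase and the aspartate aminotransferases. They were taken by exact gene symbol, 33 genes of the 18193 that the array named with a single symbol, and each was represented by its brightest probe set, a probe set being the group of short probes that reads 1 transcript. RNA labelled as mouse heart was hybridized to 4 Affymetrix arrays. The label Rhau KO was given to 2 arrays of the genotype CAAG-ERT2-Cre;Rhau F/F. The label Control was given to the other two, of the genotype Rhau F/F. All mice were adult C57BL/6J, carried the floxed Rhau allele, and received 5 doses of tamoxifen at 2 months of age, and by the methods the hearts were taken 2 months after tamoxifen. ERT2-Cre is a recombinase that tamoxifen activates, so that Rhau, the gene of an RNA helicase, can be deleted in an adult animal. By the genotype in the methods the Control mice carried no Cre. Even with the labels taken as given, effects of Cre itself and of the Rhau deletion therefore cannot be told apart. The sources used here do not state in which cells of the heart the driver acts, nor whether each array is 1 animal. The p-values therefore measure only the spread between these samples, which may be technical. With 2 arrays a group their number limits the precision, and the smallest two-sided p of an exact permutation test is 0.333.

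Pyruvate from glycolysis enters the mitochondrion and is converted to acetyl-CoA by the pyruvate dehydrogenase complex, which is switched off when the pyruvate dehydrogenase kinases phosphorylate it and on again when its phosphatases remove the phosphate. Acetyl-CoA, which fatty acid oxidation also supplies, is then oxidized in the TCA cycle, and the NADH and succinate that the cycle yields feed the respiratory chain. Heart muscle draws most of its energy from this oxidation and is rich in mitochondria. Fast skeletal muscle relies more on glycolysis.

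Dhx36, the gene of RHAU, went against the labels. The brightest probe set of Dhx36 had an intensity of 568 and 537 in the arrays labelled Rhau KO, against 327 and 194 in those labelled Control, and its other 2 probe sets were likewise higher in the arrays labelled Rhau KO, so each direction below is by label only. Esr1, the estrogen receptor gene, was set beside it because ERT2 is derived from an estrogen receptor. On the brightest Esr1 probe set the Rhau KO arrays gave 5.4 and 25.5, against 18036 and 19847 for the Control arrays. A second gave 7.9 and 43.8 for Rhau KO, against 518 and 28.7 for Control, and another gave 87.8 and 107 for Rhau KO, against 1936 and 74 for Control. Whether any of them detects the ERT2 transcript was not tested. Control rep 1 lacked most of the transcripts that define heart muscle. Myh6, the main myosin heavy chain of the adult mouse ventricle, had an intensity of 56344 and 55092 in the Rhau KO arrays, against 171 in Control rep 1 and 56095 in Control rep 2. Of 12 genes listed as markers of heart muscle, 10 were lowest in Control rep 1. Among them were Myl2 and Myl3, which slow skeletal muscle also makes and which still read 37359 and 37087 on that array. The exceptions were Hrc, which was lowest in Control rep 2, and Sln, which read 8.85 and 40.9 in the Rhau KO arrays, against 2656 in Control rep 1 and 6.85 in Control rep 2. Over 12 markers of fast skeletal muscle the median intensity was 59.5 and 39.2 in the Rhau KO arrays, against 41358 in Control rep 1 and 48.4 in Control rep 2. All 6 endothelial and all 6 macrophage markers were lowest in Control rep 1. Control rep 2 stood apart in another way, as all 6 heat shock genes were highest there, with a median intensity of 3263 and 2067 in the Rhau KO arrays, against 1681 in Control rep 1 and 24168 in Control rep 2. Every comparison is therefore given with all 4 arrays and again without Control rep 1, where the Rhau KO arrays are set against the lone Control rep 2. That fit holds no spread between Control arrays, so its standard errors and p-values rest on the 2 Rhau KO arrays and on other genes. The part of either Control array's own profile in the differences below was not tested. In whole tissue, fewer cells of a type and less RNA per cell cannot be told apart.

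Most of the 33 genes read higher in the arrays labelled Rhau KO, by amounts that stayed under a 2-fold difference for all but the dimmest gene, Pdk3. The mean log2 intensity was higher in the Rhau KO arrays for 31 of the 33 genes, where 56.9% of all genes were higher. The median log2 difference, Rhau KO minus Control, was 0.38 over the 33 genes, against 0.09 over all genes. Both Rhau KO arrays lay above both Control arrays for 22 of the 33, which held for 21.7% of all genes, and both lay below for 0 of the 33, which held for 14.6% of all genes. Centring each array on its median lowered every Rhau KO minus Control difference by 0.124 on the log2 scale, and the count of higher genes was then 27 of 33 (background 47.2%), with Pdk2, Cs, Sucla2 and Mdh2 turned to just below 0.

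None of these differences passed the test across all genes. In the fit by limma, 0 of the 33 genes and 0 of all 18193 (0%) reached an adjusted p of 0.05. At an unadjusted p of 0.05 limma called 1 of the 33, Pdhx, which was higher, where 4.31% of all genes passed and 2.14% passed as higher. At the same threshold the methods' t-test called 3, Pdhx, Pdk1 and Suclg1, where 5.17% of all genes passed, and it called 0 after adjustment. None of the 33 passed the thresholds that the study set for its arrays, a fold of 2 with an unadjusted p of 0.05, which 3.29% of all genes passed.

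Without Control rep 1 the same number of genes, 31 of 33, read higher in the Rhau KO arrays, where 52.8% of all genes did, but the median difference was smaller, 0.21 against 0.03 over all genes. Both Rhau KO arrays lay above Control rep 2 for 26 of the 33 (background 39.6%), and both lay below it for Pdk3 and Cs (background 33.3%). At an unadjusted p of 0.05 limma called 14 of the 33, all of them higher, where 13.3% of all genes passed and 7.51% passed as higher. With median centring the count at that threshold was 4, Pdhx, Pdk1, Pdk4 and Idh3b, where 13% of all genes passed. No gene of the 33 reached an adjusted p of 0.05, which 0.819% of all genes did. None passed the fold and p thresholds, which 4.51% of all genes did. Without Control rep 2 instead, the lone Control array is the one with skeletal muscle transcripts. Limma then called 27 of the 33 at an adjusted p of 0.05, 25 higher and 2 lower, Pdp1 and Pcx, where 22.5% of all genes passed.

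**Figure D1:**
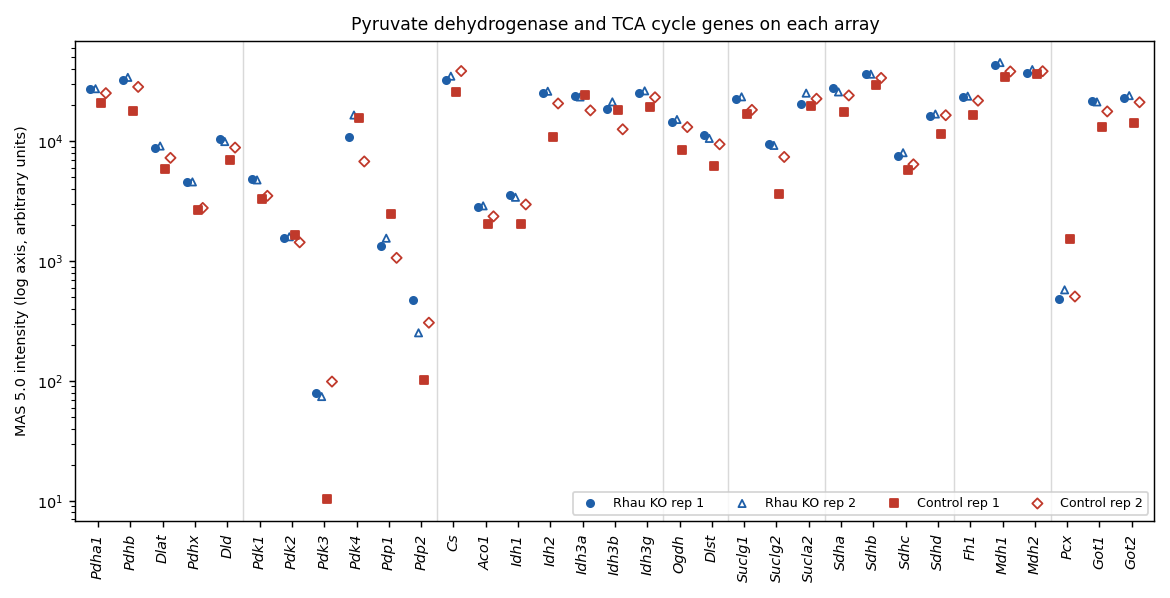
Intensity of the 33 genes on each array, on a log axis, with genes grouped by enzyme and 1 point per array. Filled circles and open triangles are the 2 Rhau KO arrays and filled squares and open diamonds the 2 Control arrays. Control rep 1 is the lowest point for 27 of the 33 genes.

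Pdhx, of the pyruvate dehydrogenase complex, was the 1 gene of the 33 that limma called at an unadjusted p of 0.05 with all arrays. Of all genes, 4.31% passed. Quantile normalization added Pdk1, and the methods' t-test added Pdk1 and Suclg1. All 5 genes of the complex read higher in both Rhau KO arrays than in either Control array, which held for 21.7% of all genes. Their median log2 difference was 0.45 with all arrays and 0.23 without Control rep 1. Pdhx encodes the E3-binding protein that anchors dihydrolipoamide dehydrogenase to the core of the complex. Its intensity was 4574 and 4568 in the Rhau KO arrays, against 2658 and 2771 in the Control arrays, or 4571 ± 4.45 against 2715 ± 79.7 (SD, n = 2 each). Both Control arrays gave nearly the same value for this gene, including the one with skeletal muscle transcripts, and the groups did not overlap. The log2 difference was 0.75 (standard error 0.19, adjusted p = 0.873 from limma) with all arrays, a fold of 1.68. It was 0.72 without Control rep 1, a fold of 1.65. Pdhx has 1 probe set on the array, so no other reading of the gene was at hand.

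On their brightest probe sets the other subunits differed less once Control rep 1 was left out. Pdha1 and Pdhb encode the alpha and beta chains of E1, which decarboxylates pyruvate. Pdhb had an intensity of 32444 and 33992 in the Rhau KO arrays, against 17863 in Control rep 1 and 28320 in Control rep 2. The log2 difference of 0.56 with all arrays was 0.23 without Control rep 1. The second probe set of Pdhb hardly depended on that array, at 1258 and 1316 in the Rhau KO arrays, against 934 and 939 in the Control arrays, a log2 difference of 0.46, and 0.45 without Control rep 1. Pdha1 read 27004 and 27346 in the Rhau KO arrays, against 20712 and 25114 in the Control arrays, a log2 difference of 0.25 with all arrays and 0.11 without Control rep 1. Dlat encodes E2, which passes the acetyl group to coenzyme A, and read 8727 and 9096 in the Rhau KO arrays, against 5901 and 7249 in the Control arrays. Its log2 difference was 0.45 with all arrays and 0.30 without Control rep 1. The 3 probe sets of Dlat ran the same way, at 0.17 to 0.30 without Control rep 1. Dld, the E3 dihydrolipoamide dehydrogenase that pyruvate and 2-oxoglutarate dehydrogenase share, read 10375 and 9912 in the Rhau KO arrays, against 6930 and 8829 in the Control arrays. The log2 difference of Dld was 0.37, and 0.20 without Control rep 1.

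**Figure D2:**
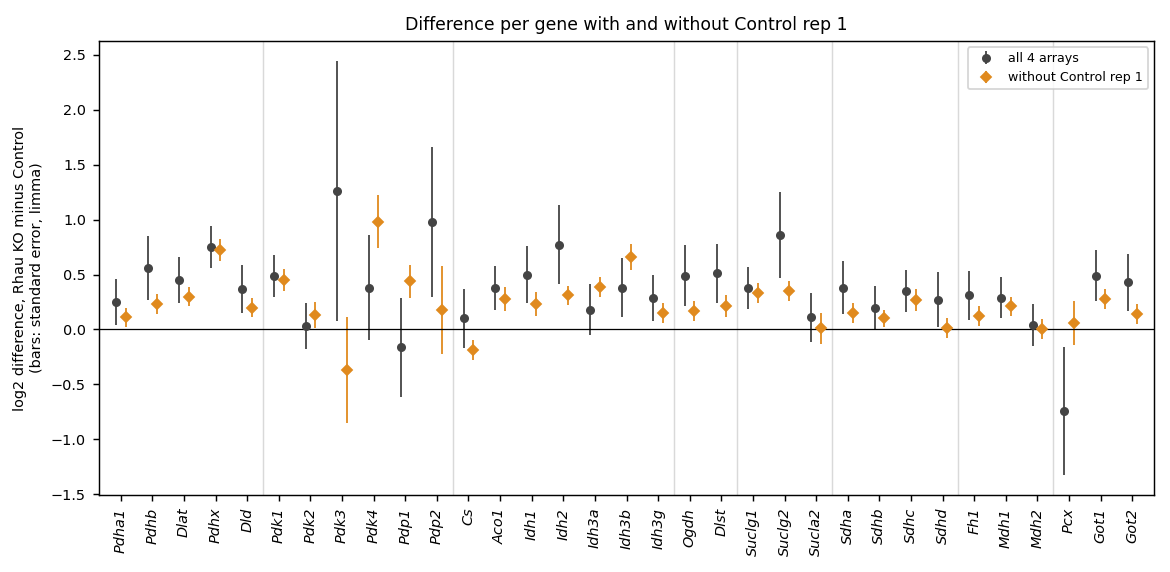
Difference in log2 intensity, Rhau KO minus Control, for each of the 33 genes, with the standard error from limma as bars. Grey circles use all 4 arrays and orange diamonds leave out Control rep 1. Pdhx is close in both (0.75 and 0.72), while Pdk4 is larger (0.98) and Idh2 and Suclg2 are smaller (0.31 and 0.35) without Control rep 1.

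Among the kinases and phosphatases that set the activity of the complex, the genes did not share a pattern. Pdk1 to Pdk4 encode kinases that inactivate E1, and Pdp1 and Pdp2 encode the catalytic subunits of the phosphatases that reactivate it. Pdk1 was the only one of the 6 for which both Rhau KO arrays lay above both Control arrays, which held for 21.7% of all genes. It read 4812 and 4745 in the Rhau KO arrays, against 3312 and 3498 in the Control arrays. Its log2 difference was 0.49 (standard error 0.19, adjusted p = 0.873 from limma), and 0.45 (adjusted p = 0.151) without Control rep 1. The array has 4 probe sets for Pdk1, and without Control rep 1 they ranged from -0.06 to 2.83, the highest being the dimmest probe set.

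Pdk4, the kinase isoform that fasting and fatty acids induce, varied widely between the arrays. It read 10816 and 16494 in the Rhau KO arrays, against 15550 in Control rep 1 and 6764 in Control rep 2. Control rep 1 lay between the 2 Rhau KO arrays and Control rep 2 below both, so the groups overlapped. With all arrays the log2 difference was 0.38 (standard error 0.48), and without Control rep 1 it was 0.98 (standard error 0.24, adjusted p = 0.182 from limma), a fold of 1.97. Without Control rep 2 instead, Pdk4 read lower in the Rhau KO arrays, at -0.22. The direction of Pdk4 thus turned with the Control array that was used. Pdp1 behaved likewise, at 1340 and 1550 in the Rhau KO arrays, against 2447 in Control rep 1 and 1063 in Control rep 2. The log2 difference of Pdp1 was -0.16 with all arrays and 0.44 without Control rep 1, and its second probe set gave 0.16 and 0.83.

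The other 3 regulators overlapped between the groups. Pdk2 read 1549 and 1593 in the Rhau KO arrays, against 1650 and 1432 in the Control arrays, with a log2 difference of 0.03 that turned to -0.09 with median centring. Pdk3 was dim, at 79.1 and 74.1 in the Rhau KO arrays, against 10.3 and 98.8 in the Control arrays, and no detection call was used here to tell such values from background. Its log2 difference was 1.26 (standard error 1.18) with all arrays and -0.37 without Control rep 1. Pdp2 read 477 and 252 in the Rhau KO arrays, against 101 in Control rep 1 and 306 in Control rep 2. Its log2 difference was 0.98 (standard error 0.68), a fold of 1.98, with all arrays, 0.18 without Control rep 1 and 1.78 without Control rep 2. Pdp2 also had the widest gap between the 2 Rhau KO arrays of any of the 33 genes, 0.92 on the log2 scale.

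The first steps of the cycle, citrate to 2-oxoglutarate, are made by citrate synthase (Cs), aconitase and the isocitrate dehydrogenases. All 7 genes read higher with all arrays, with a median log2 difference of 0.38, except that Cs turned to -0.02 with median centring, and 6 of 7 did so without Control rep 1, with a median of 0.28. Cs, often used as a measure of mitochondrial content, read 32511 and 34774 in the Rhau KO arrays, against 25536 in Control rep 1 and 38387 in Control rep 2. The 2 Control arrays lay below and above the Rhau KO arrays, and the log2 difference was 0.10 with all arrays and -0.19 without Control rep 1. The other 2 probe sets of Cs were 0.08 and 0.23 without Control rep 1, so the probe sets of this gene disagreed. Aco1 is the cytosolic aconitase, which also acts as an iron-responsive RNA-binding protein, and its log2 difference was 0.38, and 0.28 without Control rep 1. With the mean of all probe sets the direction of Aco1 turned, to -0.36 and to -0.58 without Control rep 1, as its dimmest probe set gave -2.18 and -2.21. That probe set read 1.54 and 22.5 in the Rhau KO arrays, against 26.3 and 27.3 in the Control arrays.

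The isocitrate dehydrogenase genes depended on Control rep 1 in different ways. Idh2, the mitochondrial NADP-dependent form, read 24946 and 26055 in the Rhau KO arrays, against 10812 in Control rep 1 and 20597 in Control rep 2. The log2 difference of 0.77 (standard error 0.36) with all arrays was 0.31 (standard error 0.09, adjusted p = 0.238 from limma) without Control rep 1. On this probe set Control rep 1 was the lowest of the 4 arrays. The second, dimmer probe set of Idh2 read 333 and 429 in the Rhau KO arrays, against 256 in Control rep 1 and 213 in Control rep 2, with a log2 difference of 0.69, and 0.82 without Control rep 1. Idh1, the cytosolic form, had a log2 difference of 0.50, and 0.23 without Control rep 1. For 2 subunits of the NAD-dependent enzyme of the cycle, Idh3a and Idh3b, the brightest probe set went the other way round. Its difference was larger when Control rep 1 was left out. Idh3b read 18396 and 21243 in the Rhau KO arrays, against 18339 in Control rep 1 and 12544 in Control rep 2, so Control rep 2 was the lowest. Its log2 difference was 0.38 with all arrays and 0.66 (standard error 0.12, adjusted p = 0.0963 from limma) without Control rep 1. The other 2 probe sets of Idh3b were lowest in Control rep 1. They gave 0.62 and 0.40 with all arrays, and -0.02 and 0.36 without Control rep 1, so its probe sets disagreed. Idh3b, Idh1 and Suclg2 are read by probe sets whose suffix (s) marks probes shared by several transcripts, and Dlat, Aco1 and Mdh1 by probe sets whose suffix (x) marks probes that may also bind other transcripts. Idh3a read 23997 and 23332 in the Rhau KO arrays, against 24288 and 18035 in the Control arrays. The 3 brighter probe sets of Idh3a gave 0.39 to 0.45 without Control rep 1, and the dimmest gave -0.40. Idh3g, another subunit of that enzyme, had a log2 difference of 0.29, and 0.15 without Control rep 1.

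The 2-oxoglutarate dehydrogenase complex decarboxylates 2-oxoglutarate to succinyl-CoA with the same E3 subunit as pyruvate dehydrogenase. Its 3 genes read higher in both Rhau KO arrays than in either Control array, which held for 21.7% of all genes. Their median log2 difference was 0.49, and 0.20 without Control rep 1. Dlst, the E2 subunit, read 11203 and 10529 in the Rhau KO arrays, against 6205 in Control rep 1 and 9406 in Control rep 2. For Dlst the log2 difference was 0.51 with all arrays and 0.21 (adjusted p = 0.432 from limma) without Control rep 1, where its next brightest probe set gave -0.04. Ogdh, the E1 subunit, had differences of 0.49 and 0.17.

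Succinyl-CoA ligase turns succinyl-CoA into succinate and makes GTP or ATP, depending on which beta subunit pairs with the shared alpha subunit, Suclg1. Suclg2, the GTP-forming beta subunit, had the largest log2 difference of the 33 genes with all arrays after Pdk3 and Pdp2. It read 9547 and 9202 in the Rhau KO arrays, against 3627 in Control rep 1 and 7376 in Control rep 2. The log2 difference was 0.86 (standard error 0.39, adjusted p = 0.873 from limma), a fold of 1.81, and 0.35 (standard error 0.09, adjusted p = 0.216) without Control rep 1, a fold of 1.27. Its second probe set gave 0.42 and 0.20. Suclg1 depended less on that array. It read 22299 and 23396 in the Rhau KO arrays, against 16871 and 18220 in the Control arrays, with a log2 difference of 0.38, and 0.33 without Control rep 1. Sucla2, the ATP-forming beta subunit, read 20501 and 25123 in the Rhau KO arrays, against 19708 and 22556 in the Control arrays, which overlapped, and its log2 difference of 0.11 turned to -0.02 with median centring.

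Succinate dehydrogenase is at once an enzyme of the cycle and complex II of the respiratory chain. All 4 subunit genes read higher with all arrays, by a median log2 difference of 0.31, and by 0.13 without Control rep 1, where Sdhd turned to -0.09 with median centring and to -0.02 with quantile normalization. Sdhc, 1 of the 2 membrane anchors, read 7444 and 8001 in the Rhau KO arrays, against 5700 and 6402 in the Control arrays. The groups did not overlap, and the log2 difference was 0.35, and 0.27 (adjusted p = 0.333 from limma) without Control rep 1. Sdha, the flavoprotein, read 27716 and 25699 in the Rhau KO arrays, against 17570 and 24043 in the Control arrays. Its log2 difference of 0.38 was 0.15 without Control rep 1. Sdhb, the iron-sulfur protein, had differences of 0.20 and 0.10. Sdhd, the other anchor, read 16202 and 16816 in the Rhau KO arrays, against 11380 in Control rep 1 and 16438 in Control rep 2, so on this probe set it stood apart from Control rep 1 alone. The second probe set of Sdhd read 2337 and 2195 in the Rhau KO arrays, against 1876 and 1676 in the Control arrays, with a log2 difference of 0.35, and 0.43 without Control rep 1.

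The promoters of the 30 genes with an entry in the RefSeq promoter table (GRCm38.p6, 250 bases before to 50 bases after the start; no entry for Pdp1, Idh3a and Sdhc) were read on both strands for the binding sequences of 2 regulators of mitochondrial genes. The core of the NRF1 site, GCGCANGCG, was in the promoter of 5 of the 30, Dld, Ogdh, Sucla2, Sdha and Sdhd, against 7.03% of all genes. The ERR motif, TNAAGGTCA, was in 1 of the 30, Sdhd, against 1.43% of all genes. NRF1 and the estrogen-related receptors (ERR) are transcription factors of nuclear genes for mitochondrial proteins, and the 2 motifs share no overlap. These letters are shown because Sdha held 3 NRF1 cores and Sdhd held both motifs. Capitals mark the motif, and each run of 30 bases is written 5′ to 3′ on the strand of its gene.
Sdha, chr13:74350319-74350348, minus strand: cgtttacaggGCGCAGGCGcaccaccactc
Sdha, chr13:74350276-74350305, minus strand: ggggcgtgttGCGCAGGCGcagaatcttcc
Sdha, chr13:74350231-74350260, minus strand: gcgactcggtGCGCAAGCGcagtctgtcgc
Sdhd, chr9:50603909-50603938, minus strand: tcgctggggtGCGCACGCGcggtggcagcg
Sdhd, ERR motif, chr9:50603800-50603829, minus strand: tttccgggttgtagagTGACCTTGAgccct
Ogdh, chr11:6292533-6292562, plus strand: taggtgttgtGCGCATGCGtaactcaactt
Sucla2, chr14:73552760-73552789, plus strand: tgcgtctctgCGCCTGCGCggtgcccaggg
Dld, chr12:31351422-31351451, minus strand: cggcgatgacgtatatgttGCGCAGGCGca
The ERR motif of Sdhd and the NRF1 core of Sucla2 read on the strand opposite to the gene, and the other runs on the strand of the gene. A match is a description of letters and not of binding. The 5 genes with an NRF1 core had log2 differences of 0.11 to 0.49 with all arrays, and 0.01 to 0.20 without Control rep 1.

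The last steps, fumarate to oxaloacetate, had the smallest medians of the 8 groups of enzymes, 0.29 with all arrays and 0.12 without Control rep 1. Fh1, which hydrates fumarate to malate, read 23506 and 23700 in the Rhau KO arrays, against 16600 and 21744 in the Control arrays. The log2 difference was 0.31, and 0.12 without Control rep 1. Mdh1, the cytosolic malate dehydrogenase of the malate-aspartate shuttle, read 43030 and 45174 in the Rhau KO arrays, against 34341 and 38093 in the Control arrays. The groups did not overlap, and the log2 difference was 0.29, and 0.21 (adjusted p = 0.391 from limma) without Control rep 1. Of the other probe sets of Mdh1, the brightest gave 0.24 without Control rep 1, the next -0.10, and the 2 dimmest 0.18 and -0.47. Mdh2, the mitochondrial enzyme of the cycle, read 37314 and 39492 in the Rhau KO arrays, against 36556 and 38263 in the Control arrays. These overlapped, and the log2 difference of 0.04 turned to -0.09 with median centring.

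Pcx and the aminotransferases connect the cycle to oxaloacetate and aspartate. Pcx, which carboxylates pyruvate to oxaloacetate, had the most negative log2 difference of the 33 genes, -0.74 (standard error 0.58, adjusted p = 0.873 from limma), and it rested on 1 array. It read 484 and 575 in the Rhau KO arrays, against 1537 in Control rep 1 and 506 in Control rep 2. Without Control rep 1 the log2 difference was 0.06. Got1 and Got2, the cytosolic and mitochondrial aspartate aminotransferases of the malate-aspartate shuttle, both read higher in the 2 Rhau KO arrays than in either Control array. Such a separation held for 21.7% of all genes. Got1 read 21661 and 21214 in the Rhau KO arrays, against 13155 and 17680 in the Control arrays, with a log2 difference of 0.49, and 0.28 (adjusted p = 0.265 from limma) without Control rep 1. Got2 had differences of 0.43 and 0.14.

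The arrays themselves showed how the 33 genes were spread. The 2 Rhau KO arrays lay close together, with a median absolute difference of 0.07 on the log2 scale. The 2 Control arrays differed by a median absolute 0.43, and the median of Control rep 1 minus Control rep 2 was -0.28. Against Control rep 2, the Rhau KO arrays were higher by medians of 0.22 (rep 1) and 0.20 (rep 2), and against Control rep 1 by 0.50 and 0.51. Control rep 1 was the lowest of the 4 arrays for 27 of the 33 genes and the highest for 4, Pcx, Pdp1, Pdk2 and Idh3a. The same array lay lowest for 4269 of the 9096 brighter genes.

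**Figure D3:**
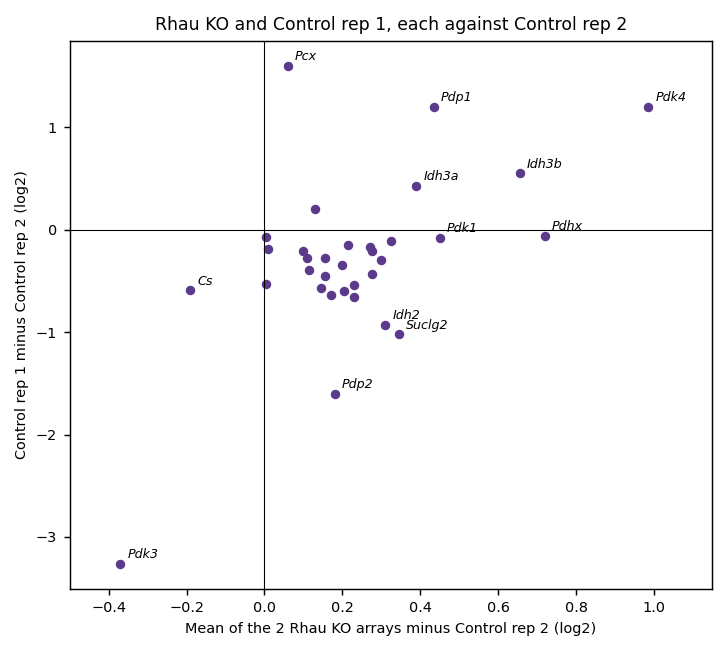
Each of the 33 genes as a point, with the mean of the 2 Rhau KO arrays minus Control rep 2 on the horizontal axis and Control rep 1 minus Control rep 2 on the vertical axis, both in log2 units. Most points lie right of 0 and below 0. Pdhx and Pdk1 lie to the right with Control rep 1 near 0, whereas Pdk4, Pdp1, Idh3a and Idh3b lie to the right with Control rep 1 above 0.

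Other probe sets of the same genes mostly ran the same way. The 33 genes had 74 probe sets, of which 67 read higher in the Rhau KO arrays with all arrays and 62 without Control rep 1. Of the 65 whose mean was above an intensity of 100, 62 and 58 did so, and of the 9 dimmer ones 5 and 4. Of the 23 genes with more than 1 probe set, all probe sets ran higher for 17 with all arrays and for 14 without Control rep 1. Probe sets of 1 gene share its transcripts and are not replicates. The shares over all probe sets and all genes are not given for these counts, so they stand without a background.

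**Figure D4:**
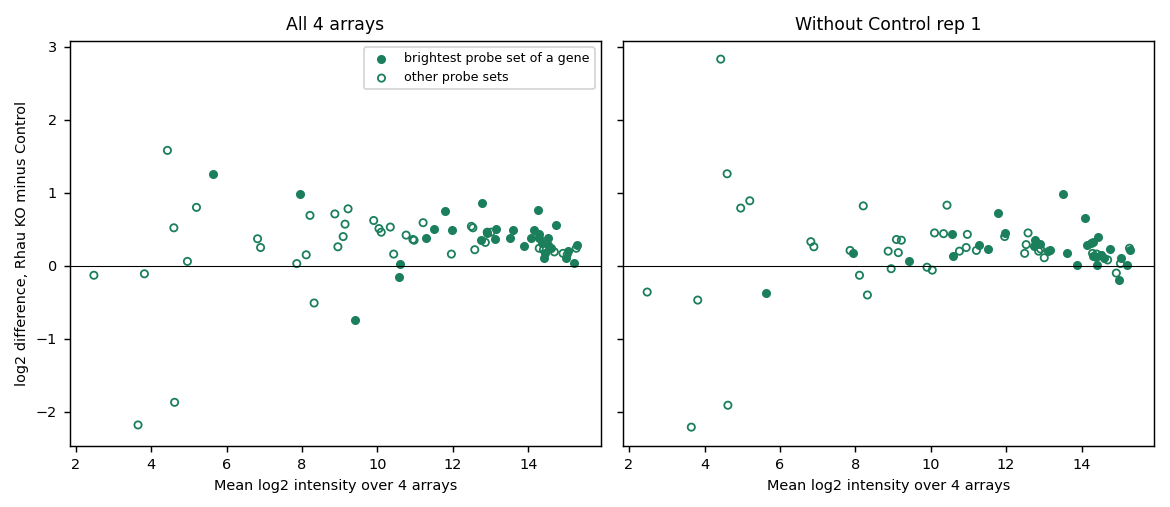
Difference in log2 intensity, Rhau KO minus Control, of all 74 probe sets of the 33 genes against their mean log2 intensity over the 4 arrays, with all arrays on the left and without Control rep 1 on the right. Filled points are the brightest probe set of each gene and open points the others. The widest differences are at the dim end.

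Neighbouring pathways were set beside these genes by counts and medians. Of all genes, 56.9% read higher with all arrays and 52.8% without Control rep 1, with median log2 differences of 0.09 and 0.03. Of 20 measured genes of fatty acid oxidation, all 20 read higher with all arrays and 18 without Control rep 1, with median log2 differences of 0.71 and 0.27. Cpt2, the inner-membrane carnitine palmitoyltransferase, had the smallest p of that list with all arrays, with a log2 difference of 1.16 (adjusted p = 0.873 from limma). Of 34 genes of complex I, 33 read higher with all arrays and 28 without Control rep 1, with smaller medians of 0.19 and 0.08. Of 16 glycolytic genes, 8 read higher with all arrays and 7 without Control rep 1, with medians of -0.06 and -0.04. The 33 genes thus lay between fatty acid oxidation and complex I with all arrays. Without Control rep 1 the median of the 33 genes was 0.21. It was 0.27 for fatty acid oxidation, 0.16 for the wider set of pyruvate and TCA genes described next, and 0.08 for complex I. These gaps between lists were not tested.

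The wider set of pyruvate and TCA genes, with carriers, assembly factors and anaplerotic enzymes, was more mixed. Of 35 measured genes, 23 read higher with all arrays (background 56.9%) and 24 without Control rep 1 (background 52.8%). The median log2 difference was 0.16 in both. None reached an adjusted p of 0.05 in limma, and at an unadjusted p of 0.05 there were 3 with all arrays, all higher, where 4.31% of all genes passed, and 11 without Control rep 1, 10 higher and 1 lower, where 13.3% passed. Of the 3, Pdha2, the testis form of E1 alpha, also passed the fold of 2, but was dim, at 35.9 and 28.4 in the Rhau KO arrays, against 8.23 and 4.35 in the Control arrays. Sdhaf2, which helps to attach FAD to Sdha, read 2726 and 3033 in the Rhau KO arrays, against 1808 and 2027 in the Control arrays. Its log2 difference was 0.59 (adjusted p = 0.873 from limma), and 0.50 (adjusted p = 0.177) without Control rep 1, a small change next to its standard error of 0.20. Bdh1, the ketone body dehydrogenase, read 3074 and 2392 in the Rhau KO arrays, against 1413 and 1689 in the Control arrays. Bdh1 had a log2 difference of 0.81, and 0.68 without Control rep 1. Glud1, glutamate dehydrogenase, read 4191 and 4236 in the Rhau KO arrays, against 4484 in Control rep 1 and 2771 in Control rep 2. Like the brightest probe set of Idh3b, that of Glud1 was lowest in Control rep 2.

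**Figure D5:**
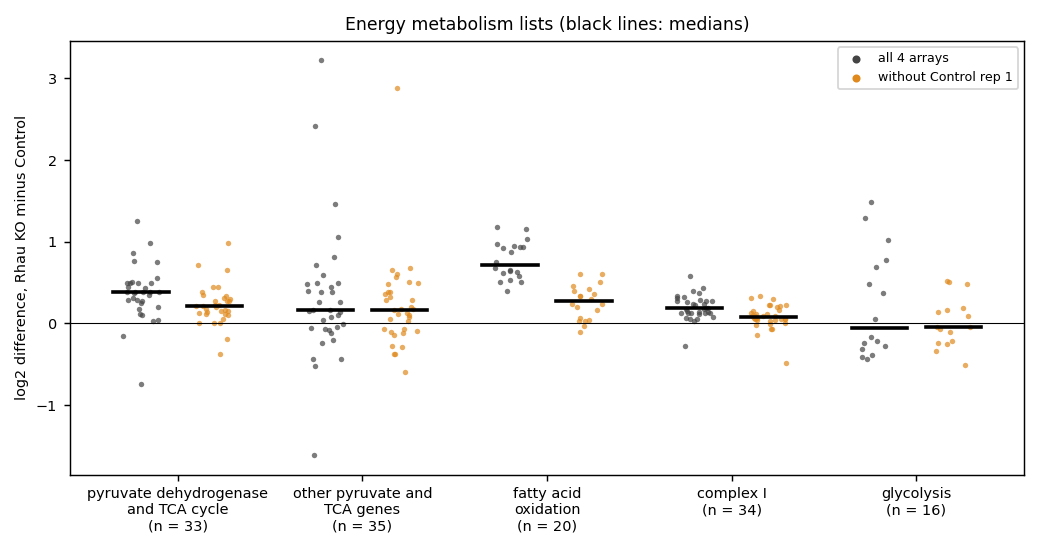
Difference in log2 intensity, Rhau KO minus Control, of each gene of 5 lists, 1 point per gene, with the median as a black line. Grey points use all 4 arrays and orange points leave out Control rep 1. The median of the 33 genes is 0.38 and 0.21, that of fatty acid oxidation 0.71 and 0.27, and that of glycolysis is near 0 in both.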

How the data were processed

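The authors normalized the scans with MAS 5.0 in GeneSpring, and the deposited values are intensities on a linear scale with an equal trimmed mean over the 4 arrays. Detection calls and scan dates were not used here. Of 45101 probe sets, 64 controls were dropped, and 34945 had a single gene symbol in the platform annotation, 932 several and 9160 none. A gene was read by its brightest probe set (mean of log2 intensity over all arrays), which left 18193 genes. Groups followed the labels. Log2 intensities were compared, Rhau KO minus Control, in limma (version 3.58.1, R 4.3.3; eBayes with an intensity trend), and p-values were adjusted over all genes by Benjamini-Hochberg, with a threshold of 0.05. A group reduced to a single array was taken to vary as the remaining arrays do.

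The members and lists were chosen with earlier results of these data known. All 33 members are named. From each other metabolic list at most 4 genes are named, taken from those with the smallest p with all arrays or without Control rep 1. The number of arrays limits precision, and 46% to 48.1% of probe sets with a single symbol read under 100 on an array. The alternatives were eBayes without trend, quantile normalization, median centring, a pseudocount of 32, the 9096 brighter genes, other choices of probe set, a replicate block, the t-test named in the methods, and each array left out. Those that join the loss of Control rep 1 with another setting were added after seeing the data. The code was tested on simulated arrays. Python 3.11.15, numpy 2.4.6, pandas 2.3.3 and matplotlib 3.10.9 were used.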

Additional observations from a re-analysis of the deposited data

How the results depend on the processing

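Under no alternative that kept the 4 arrays did any of the 33 genes pass an adjusted p of 0.05. The count of all genes past the fold and p thresholds, 599, was 338 with a pseudocount of 32, 167 among the brighter genes, 1149 with every probe set counted singly and 351 with the methods' t-test. Counted singly, 67 of 74 probe sets of the 33 genes were higher in Rhau KO, and the share over all probe sets is not given here. Median centring gave a median log2 difference of 0.26 over the 33 genes, with Pdk2 at -0.09, Cs at -0.02, Sucla2 at -0.02 and Mdh2 at -0.09. By construction it shifts all genes by the same amount. The mean of all probe sets gave -0.36 for Aco1 and -0.32 for Sucla2. Each has a dim probe set that was far lower in Rhau KO rep 1 than on the other arrays. That of Aco1 read 1.54 and 22.5 in the Rhau KO arrays, against 26.3 and 27.3 in the Control arrays. That of Sucla2 read 5.29 and 31.3 in the Rhau KO arrays, against 45.7 and 48.4 in the Control arrays. The next brightest probe set gave 0.16 for Pdp1.

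Leaving out each array in turn gave 0 to 4097 genes at an adjusted p of 0.05 (149 without Control rep 1), 285 to 3282 past the fold and p thresholds, 0 to 5 of the 33 past them, and a median over the 33 of 0.21 (without Control rep 1) to 0.51 (without Control rep 2). The ranges of the genes that turned were -0.07 to 0.13 for Pdk2, -0.37 to 2.89 for Pdk3, -0.22 to 0.98 for Pdk4, -0.76 to 0.44 for Pdp1, -0.19 to 0.40 for Cs, -0.04 to 0.39 for Idh3a, -0.04 to 0.25 for Sucla2, -0.0033 to 0.08 for Mdh2 and -1.54 to 0.06 for Pcx. All but Sucla2 and Mdh2 turned with the loss of a Control array, and those 2 with the loss of Rhau KO rep 2.

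Without Control rep 1, 31 of the 33 genes were higher, 28 with quantile normalization and 27 with median centring. With quantile normalization Pdk3 was -0.45, Pdp1 0.46, Cs -0.19, Sucla2 -0.0019, Sdhd -0.02, Mdh2 -0.00022 and Pcx 0.06. With median centring Pdk3 was -0.46, Pdp1 0.35, Cs -0.28, Sucla2 -0.08, Sdhd -0.09 and Mdh2 -0.09. With the mean of all probe sets Pdk3 was -0.37, Pdp1 0.64, Aco1 -0.58, Sucla2 -0.34 and Pcx 0.06. With the next brightest probe set Pdp1 was 0.83, Idh3b -0.02 and Dlst -0.04. Why these differ was not tested beyond the settings themselves. In every setting run, those above included, 20 of the 33 genes were higher in Rhau KO, among them Pdhx, Pdk1, Idh2, Suclg1 and Suclg2. The settings use the same arrays, and the share of all genes higher in every setting is not given here. Past the brightest probe set only the next brightest was read singly in that count. Without Control rep 1 a dimmer probe set of Pdk1 gave -0.06 and one of Mdh1 gave -0.10.

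The labels number the replicates alike in both groups, but nothing states that a number marks a pair, and the deviations of same-numbered arrays from their group means had a correlation of 0.00603. With the number as a replicate block, 634 genes passed the fold and p thresholds, 0 genes passed the adjusted p, and 31 of the 33 were higher with a median of 0.38. Both Rhau KO arrays lay above each Control array singly for 22 of the 33, which held for 21.7% of all genes.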
